A study of Mus musculus with 8 samples.

Results

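Keratin genes were examined across the RNA-seq libraries of a mouse pancreatic ductal adenocarcinoma (PDAC) series. Members were all genes whose symbol consists of Krt, a number and at most 1 further letter, which gave 54 of the 53465 genes in the count table. Of these, 22 had no read in any library and 11 were detected, meaning 10 or more counts in at least 2 of the 8 libraries. The detected genes were Krt18, Krt8, Krt19, Krt7, Krt80, Krt20, Krt13, Krt10, Krt14, Krt79 and Krt23, and all 11 passed the low-count filter of the tests. At the edge of the rule, Krt23 had 10 or more counts in 3 libraries and was included, whereas Krt87, Krt33a and Krt15 each reached 10 counts in 1 library only (12, 12 and 10 counts) and were not.

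The cells belonged to lines B73 and B87, each derived from a primary pancreatic tumor of a KC-shSmad4 mouse that carried Ptf1a-Cre, LSL-rtTA3-IRES-mKate2 at Rosa26 and an shRNA homing cassette at Col1a1. In these mice Ptf1a-Cre, active in the pancreatic lineage, switches on the rtTA3 transactivator, and doxycycline (Dox) then drives a GFP-linked shRNA against Smad4 from the Col1a1 locus. Cells held on Dox were Smad4 off, and cells taken off Dox for 5 days were Smad4 on. Each state was treated for 24 h with 100 pM TGFβ1 or with 2.5 µM SB505124, which blocks the TGFβ type I receptor kinase, so that 4 groups of 2 libraries resulted, 1 from each line. These alleles were common to all groups. Dox and Smad4 changed together and no line with a control shRNA was among these libraries, so an effect of Dox itself cannot be told apart from one of Smad4. Each line stands for 1 tumor and each condition for 1 culture of it, and p-values measure the spread left after the line is accounted for.

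Keratins are the intermediate filament proteins of epithelial cells. Their filaments are obligate heteropolymers in which a type I (acidic) chain pairs with a type II (basic) chain. Simple epithelia such as the pancreatic ducts build filaments mainly from Krt8 (type II) with Krt18 and Krt19 (type I), and Krt7 (type II) is a further ductal keratin. Krt5 with Krt14 marks the basal layer of stratified epithelia, Krt4 with Krt13 and Krt1 with Krt10 their differentiated layers, and Krt6a, Krt6b, Krt16 and Krt17 are induced in stressed or wounded epidermis. Krt19 is widely used as a marker of ductal cells and of PDAC epithelium.

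Libraries held between 18389235 and 23440550 counts, and Smad4 mRNA lay between 33.7 and 35.5 CPM in the Smad4-off and between 97.4 and 117 CPM in the Smad4-on libraries. CPM are read counts set to a common library size after TMM scaling, and 3 counts, taken as the smallest detectable level, equalled 0.125 to 0.162 CPM. All 10 markers of PDAC epithelium were detected in at least 1 library, although Epcam stayed between 0.153 and 2.11 CPM, and the list summed to between 4015 and 6266 CPM in B73 and between 1245 and 2162 CPM in B87. Of the lists for other cell types, the immune list summed to between 22.3 and 54.9 CPM, mostly Cd14 (20.95 to 48.42 CPM), with Ptprc at most at 0.153 CPM. The mesothelial list summed to between 819 and 1090 CPM, nearly all of it Msln (795 to 1079 CPM), with Upk1b between 2.81 and 42.0 CPM and Wt1 at 0. The 5 endocrine markers were at 0 in all libraries.

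Simple epithelial keratins made up nearly the whole keratin pool. The 7 genes of that group (Krt7, Krt8, Krt18, Krt19, Krt20, Krt23 and Krt80) were all detected and summed to between 3696 and 5797 CPM in B73 and between 1208 and 1974 CPM in B87. Of the 3 basal stratified keratins only Krt14 was detected. Krt5, its usual partner, did not exceed 5 counts in a library. None of the 4 stress and activation keratins was detected, with at most 8 counts for Krt16, 1 count of Krt17 in all libraries together and no count of Krt6a or Krt6b. Among the 12 differentiated stratified keratins in the table, Krt10, Krt13 and Krt79 were detected, and none of the 25 hair and nail keratins was.

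**Figure D1:**
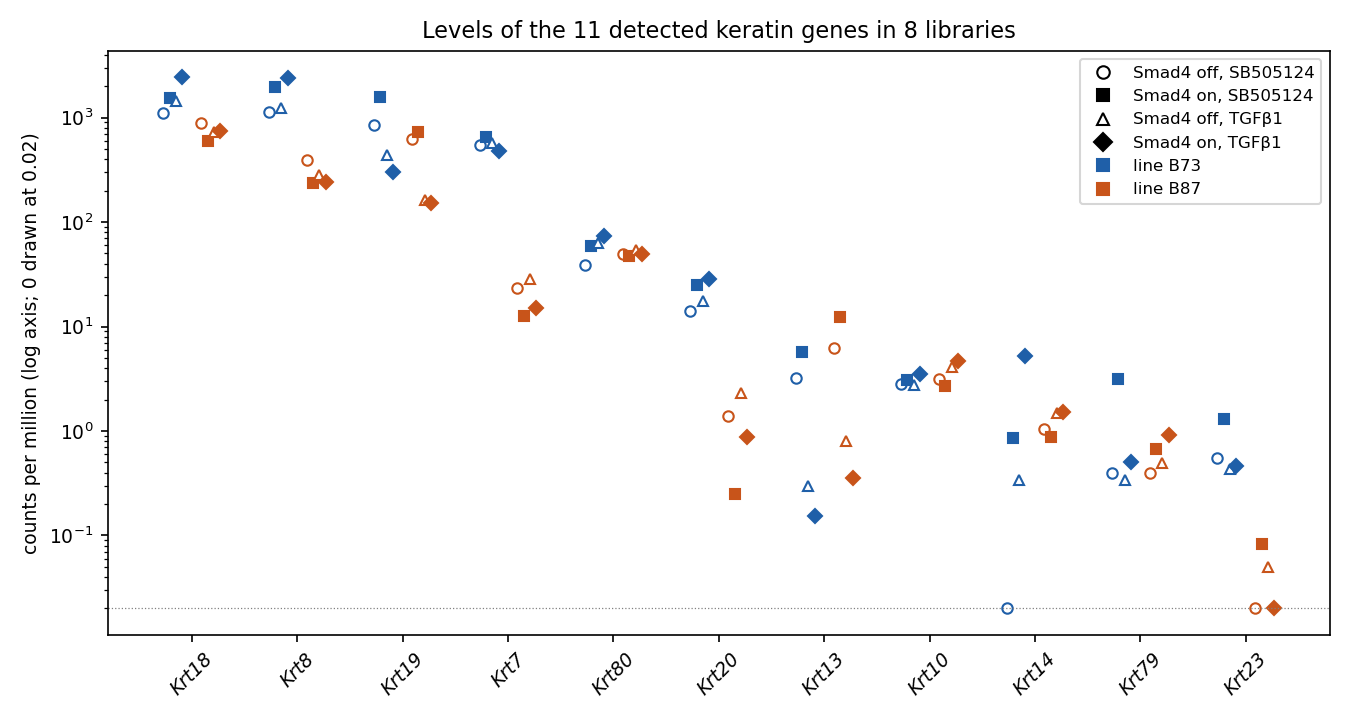
Level of each detected keratin gene in each library, in CPM on a log axis. Points are single libraries, colored by line (B73, B87) with the marker giving the group. Krt7, Krt8, Krt18, Krt20 and Krt23 separate by line, and Krt13 and Krt19 separate by treatment within each line.

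To compare genes with each other, CPM were divided by the length of the principal GENCODE transcript in kilobases. On this scale Krt18 was the most abundant keratin in 7 of the 8 libraries, and Krt19 took first place in the remaining library, Smad4-on B87 cells under SB505124. Krt8, Krt18 and Krt19 together formed between 91.7% and 95.1% of the keratin counts per kilobase in B73 and between 96.2% and 97.7% in B87. Krt7 contributed between 3.54% and 6.77% in B73 but between 0.300% and 0.897% in B87. Krt80, a type II keratin, contributed between 0.586% and 2.25%, and the other 6 genes between 0.541% and 0.953%.

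The balance of the 2 chain types differed in level between the lines. Type I transcripts outnumbered type II transcripts by 1.39 to 1.82 times in B73 and by 3.66 to 6.33 times in B87, on the per-kilobase scale. For the pair Krt18 and Krt8 alone the ratio was 1.33, 1.08, 1.59 and 1.37 in B73, in the order Smad4 off under SB505124, Smad4 on under SB505124, Smad4 off under TGFβ1 and Smad4 on under TGFβ1. In B87 it was 3.08, 3.41, 3.55 and 4.22 in the same order, so that the lines did not overlap. These are ratios of mRNA, and 23.5% of the 75-base stretches of the Krt8 transcript also occur in the pseudogene Krt8-ps, which itself held 3 to 41 counts per library, so the level of Krt8 is less certain than that of Krt18. No other detected keratin shared more than 5.91% of its stretches with another gene (Krt14, mostly with Krt16).

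**Figure D2:**
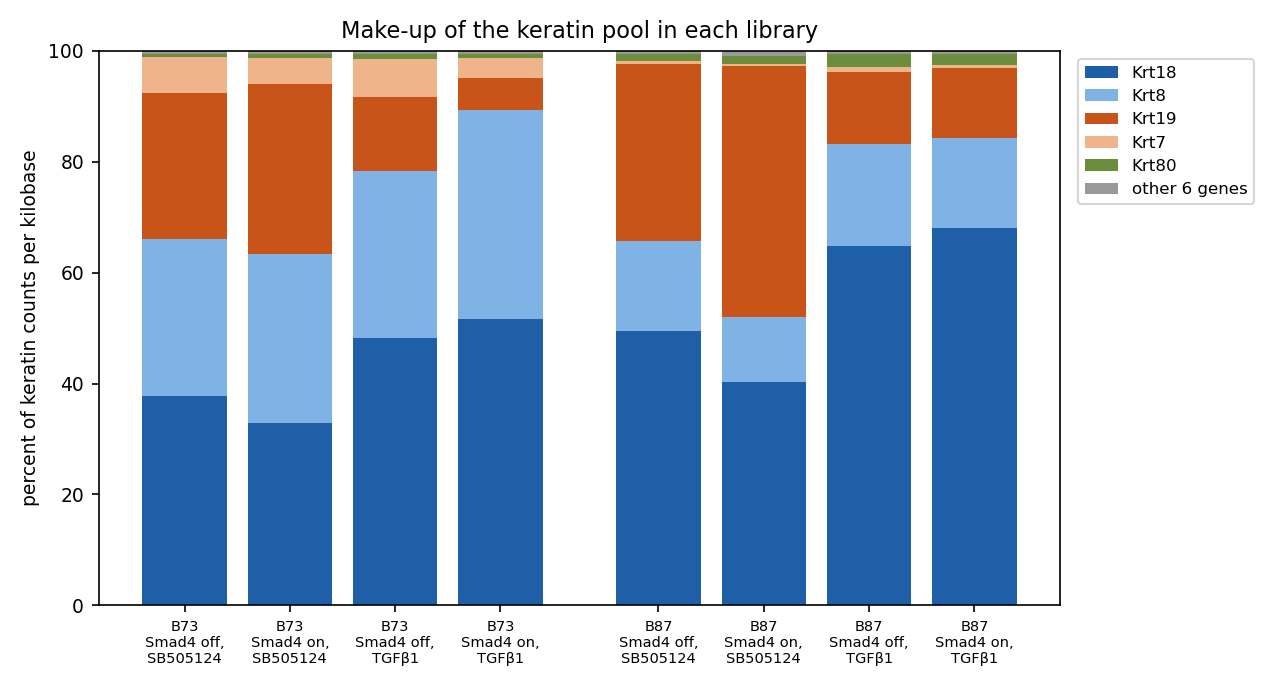
Make-up of the keratin pool in each library, as percent of keratin counts per kilobase. Each bar is 1 library and sums to 100%. The Krt19 share is smaller under TGFβ1 than under SB505124 in every pair of libraries of 1 line and Smad4 state, at 5.80% against 30.6% in Smad4-on B73 cells and 12.7% against 45.2% in Smad4-on B87 cells, and the Krt8 and Krt7 shares are smaller in B87.

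The detected genes lie in the 2 keratin clusters of the genome (coordinates on GRCm38). The type I genes Krt10 (chromosome 11, 99385254 to 99389364), Krt20 (99428403 to 99438150), Krt23 (99477974 to 99493137), Krt13 (100117327 to 100121566), Krt19 (100140810 to 100148665) and Krt14 (100203162 to 100207548) are all on the minus strand of chromosome 11. The type II genes Krt80 (101349571 to 101370125), Krt7 (101411043 to 101430313), Krt79 (101929332 to 101940324) and Krt8 (101996711 to 102004342) lie on chromosome 15. Krt18 (102028216 to 102032026, plus strand), though a type I gene, sits in the type II cluster, 23.9 kb beyond its partner Krt8.

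Upstream sequence is shown for the genes on which the comparisons turned: Krt13, which changed most under TGFβ1, the partners Krt8 and Krt18, and Krt7 and Krt20, which differed between the lines. Each sequence holds the 250 bases before the RefSeq start site (GRCm38.p6), at chr11:100121567-100121816 on the minus strand for Krt13, chr15:102004343-102004592 on the minus strand for Krt8, chr15:102027966-102028215 on the plus strand for Krt18, chr15:101412153-101412402 on the plus strand for Krt7 and chr11:99438154-99438403 on the minus strand for Krt20. Sequences are written 5′ to 3′ on the strand of the gene. Capitals mark matches, on either strand, to CAGACA (a SMAD-binding sequence) or CACCC (a sequence bound by Krüppel-like factors), the 2 motifs found among the 4 searched.
Krt13: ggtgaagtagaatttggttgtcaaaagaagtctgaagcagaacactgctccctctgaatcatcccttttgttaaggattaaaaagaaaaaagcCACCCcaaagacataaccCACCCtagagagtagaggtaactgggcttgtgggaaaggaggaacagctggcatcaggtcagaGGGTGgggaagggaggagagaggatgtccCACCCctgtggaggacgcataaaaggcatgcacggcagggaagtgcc
Krt8: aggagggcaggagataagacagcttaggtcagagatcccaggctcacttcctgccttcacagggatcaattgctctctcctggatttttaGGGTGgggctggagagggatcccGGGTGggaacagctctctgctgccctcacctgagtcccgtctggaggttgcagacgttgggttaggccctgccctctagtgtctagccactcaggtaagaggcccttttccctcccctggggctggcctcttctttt
Krt18: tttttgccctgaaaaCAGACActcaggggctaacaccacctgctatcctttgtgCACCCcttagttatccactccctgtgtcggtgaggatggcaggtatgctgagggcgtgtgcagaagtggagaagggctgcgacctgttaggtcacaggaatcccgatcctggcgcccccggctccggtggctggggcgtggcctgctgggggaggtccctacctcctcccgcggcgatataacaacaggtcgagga
Krt7: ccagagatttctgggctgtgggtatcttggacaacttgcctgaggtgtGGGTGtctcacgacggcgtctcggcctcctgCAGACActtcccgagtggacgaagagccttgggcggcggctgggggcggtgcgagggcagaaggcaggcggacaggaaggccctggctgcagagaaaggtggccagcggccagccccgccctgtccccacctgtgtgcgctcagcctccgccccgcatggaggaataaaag
Krt20: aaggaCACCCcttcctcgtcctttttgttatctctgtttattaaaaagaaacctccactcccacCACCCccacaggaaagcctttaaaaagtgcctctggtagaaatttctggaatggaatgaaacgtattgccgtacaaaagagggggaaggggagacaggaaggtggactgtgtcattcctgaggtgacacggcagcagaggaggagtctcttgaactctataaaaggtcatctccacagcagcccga
The palindrome GTCTAGAC, bound by SMADs, and TGACTCA, bound by AP-1 (its reverse complement is TGAGTCA), matched none of these 5 windows. CACCC matched all 5, with 4 matches before Krt13, 2 each before Krt8 and Krt20 and 1 each before Krt18 and Krt7, and it occurs in 52% of the 32851 promoter windows of the same length. CAGACA matched once before Krt18 and once before Krt7, against 17.1% of all windows. A second, internal Krt13 start site in the same table had 2 matches to TGACTCA, which is present in 4.46% of windows, while GTCTAGAC is present in 0.167%. The window of Krt23, which also differed between the lines and is not shown, had no match to any of the 4. Such matches describe the letters only.

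The response to TGFβ1 was assessed first, against SB505124 within each Smad4 state. Krt19 and Krt13 were lower with TGFβ1 in both states and in both lines, and no keratin was called higher. In the edgeR quasi-likelihood test a gene was called at a Benjamini-Hochberg adjusted p under 0.05 and a change over 2-fold. In Smad4-on cells 2 of the 11 keratins were called lower and 0 higher, where 8.31% of the 14301 tested genes were called lower and 5.62% higher. In Smad4-off cells the same 2 were called lower and 0 higher, against 2.82% and 3.11% of all genes. Over the 11 keratins the median log2 change was 0.19 when Smad4 was on and 0.06 when it was off, beside -0.02 for all genes in both. The 2 contrasts use different libraries, but each compares a stimulated with an inhibited culture, and no untreated culture was among them.

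Krt19, the ductal type I keratin, had 850 CPM (Smad4 off) and 1575 CPM (Smad4 on) under SB505124 in B73, and 436 and 299 CPM under TGFβ1. In B87 it had 626 and 729 CPM under SB505124, and 162 and 153 CPM under TGFβ1. All 4 TGFβ1 libraries thus lay below all 4 SB505124 libraries. With Smad4 on, Krt19 fell by 2.33 ± 0.215 on the log2 scale (SE, edgeR adjusted p 0.000454), with log2 changes of -2.40 in B73 and -2.25 in B87. With Smad4 off it fell by 1.46 ± 0.211 (edgeR adjusted p 0.0067), with log2 changes of -0.96 in B73 and -1.95 in B87. This second call was lost without the Smad4-off TGFβ1 library of B87 (log2 change -1.16, edgeR adjusted p 0.0572). When the line was left out of the model (no replicate block), the edgeR adjusted p of Krt19 was 0.0568 with Smad4 on and 0.344 with Smad4 off. In bulk RNA, less Krt19 per cell and fewer Krt19-expressing cells cannot be told apart.

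Krt13, a keratin of differentiated internal stratified epithelia, was present at a far lower level. Its counts under SB505124 were 65 (Smad4 off) and 105 (Smad4 on) in B73 and 142 and 296 in B87, equal to 3.24, 5.67, 6.24 and 12.3 CPM. Under TGFβ1 they were 7 and 3 in B73 and 16 and 7 in B87, equal to 0.300, 0.153, 0.797 and 0.357 CPM. The treatments did not overlap, and in Smad4-on B73 cells the level reached the 3 counts taken as the limit of detection. The fitted log2 change was -5.11 ± 0.289 with Smad4 on (edgeR adjusted p 0.000108) and -3.14 ± 0.258 with Smad4 off (edgeR adjusted p 0.00105). With no replicate block the second of these had an edgeR adjusted p of 0.101. In the pair with 3 counts the ratio of SB505124 to TGFβ1 was 37.0, with a 95% counting interval from 12.3 to 183 (exact binomial).

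**Figure D3:**
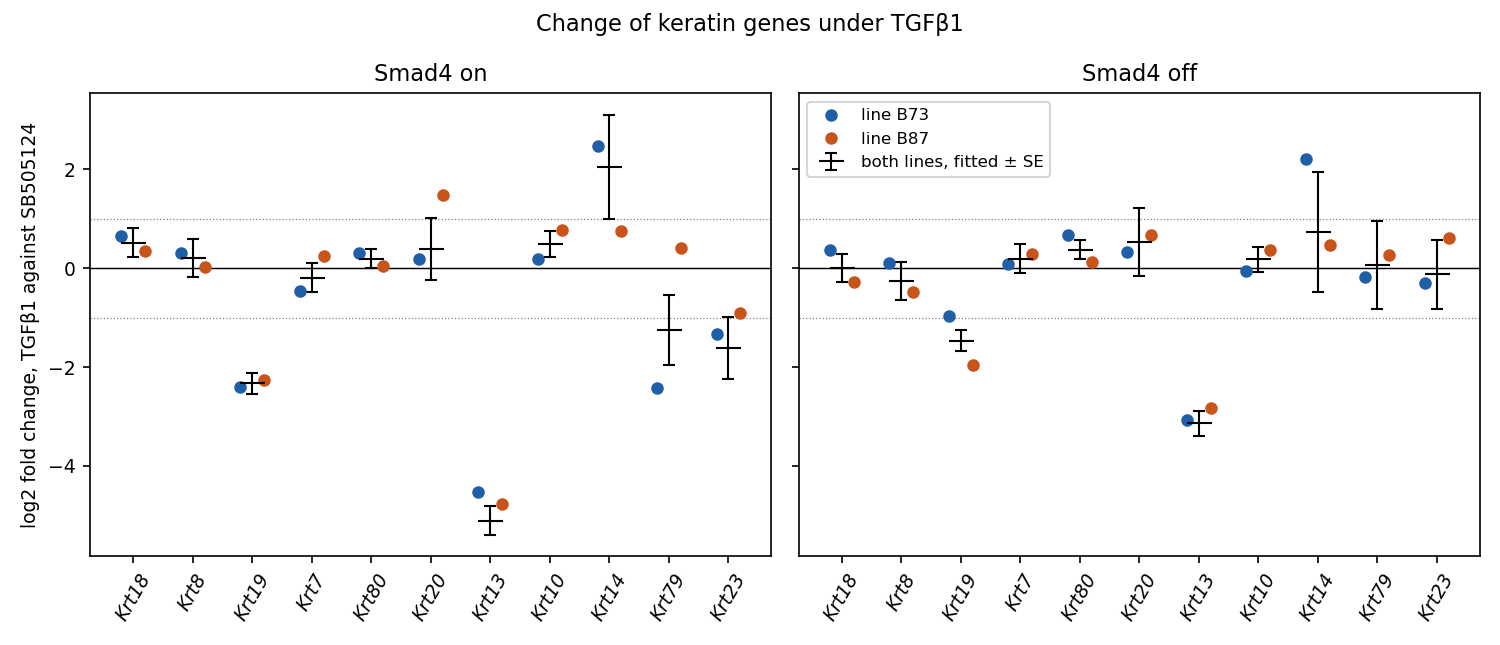
Log2 fold change of each detected keratin with TGFβ1 against SB505124, in Smad4-on cells (left) and Smad4-off cells (right). Colored points are the 2 lines and the black bar is the value fitted to both lines ± SE. Dotted lines mark 2-fold. Krt13 and Krt19 lie below the lower dotted line by the fitted value in both panels.

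The partners Krt8 and Krt18 were not called in either Smad4 state. For Krt18 the fitted log2 change with TGFβ1 was 0.52 ± 0.284 with Smad4 on and 0.00 ± 0.285 with Smad4 off, and for Krt8 it was 0.20 ± 0.384 and -0.25 ± 0.386, with edgeR adjusted p-values between 0.205 and 0.999. Krt7 differed by -0.19 ± 0.288 and 0.20 ± 0.287, and Krt80 by 0.19 ± 0.193 and 0.38 ± 0.194. As a share of the keratin pool per kilobase, Krt19 went from 26.3% to 13.3% (Smad4 off) and from 30.6% to 5.80% (Smad4 on) in B73, and from 32.1% to 13.1% and from 45.2% to 12.7% in B87. Over the same pairs the Krt18 share was higher with TGFβ1, between 48.1% and 68.1% against between 32.9% and 49.5%.

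The other low-abundance keratins were not called under TGFβ1. Krt10 lay between 2.70 and 4.69 CPM throughout. Krt14 had 0 counts in Smad4-off B73 cells under SB505124 and 102 counts (5.21 CPM) in Smad4-on B73 cells under TGFβ1, while its other 6 libraries held between 8 and 30 counts. With Smad4 on, its fitted log2 change was 2.05 ± 1.06 (edgeR adjusted p 0.182), it was 0.06 without the library with 102 counts, and without the Smad4-on TGFβ1 library of B87 the change was 3.47 and called (edgeR adjusted p 0.0406). It was also called with no filter on low counts (2.04, edgeR adjusted p 0.0193). Krt79 stood out in 1 library, Smad4-on B73 cells under SB505124 (58 counts, 3.13 CPM), against 8 to 18 counts in the remaining 7. Its fitted log2 change with TGFβ1 in Smad4-on cells was -1.24 ± 0.709 (edgeR adjusted p 0.222), changed sign without that library (0.32), and was called without the Smad4-on SB505124 library of B87 (-2.41, edgeR adjusted p 0.016). Krt23 had an edgeR adjusted p of 0.0937 with Smad4 on.

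Along the type I cluster, 3 other genes had more reads under SB505124, though too few to count as detected. These genes were picked out after their counts had been seen. Going along chromosome 11, Krt33a (100011195 to 100016212) and Krt36 (100102007 to 100105626), both hair keratins, precede Krt13, with Krt33b, Krt34, Krt31, Krt32 and Krt35 between them, and Krt15 (100131758 to 100135928), a basal keratin, lies between Krt13 and Krt19. Krt33a had 5, 5, 8 and 12 counts in the 4 SB505124 libraries and 0, 0, 2 and 1 in the TGFβ1 libraries. Krt36 had 3, 6, 4 and 8 counts under SB505124 and 1, 1, 0 and 0 under TGFβ1, and Krt15 had 5, 9, 1 and 10 against 0, 0, 1 and 0. Summed over libraries and scaled for library size, the ratio of SB505124 to TGFβ1 was 9.68 for Krt33a (95% counting interval 3.01 to 49.6), 10.2 for Krt36 (2.48 to 89.4) and 24.2 for Krt15 (3.96 to 994). These intervals cover counting error only and not the spread between cultures. Krt34, Krt32 and Krt35, and Krt9 just beyond Krt19, had no read in any library and so cannot show a change. Krt33b had 2 reads under SB505124 and 0 under TGFβ1, and Krt31 had 5 and 2, too few to judge. By the same sums Krt23 had 37 reads under SB505124 and 20 under TGFβ1, a ratio of 1.79 (1.013 to 3.256), while Krt10 (251 and 308) and Krt20 (779 and 1034) had more under TGFβ1. So did Krt14, 54.5 kb beyond Krt19, and Krt16 (170 against 61 for Krt14, of which 102 came from 1 library, and 14 against 5 for Krt16). Keratins on chromosome 15 with 10 or more reads in all also went both ways. Krt78 (10 under SB505124 and 3 under TGFβ1), Krt5 (9 and 6), Krt79 (91 and 46) and, barely, Krt7 (23679 and 23626) had more under SB505124. Krt80 (4135 and 4935), Krt87 (16 and 18), Krt8 (73419 and 86365) and Krt18 (85136 and 110482) had more under TGFβ1.

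**Figure D4:**
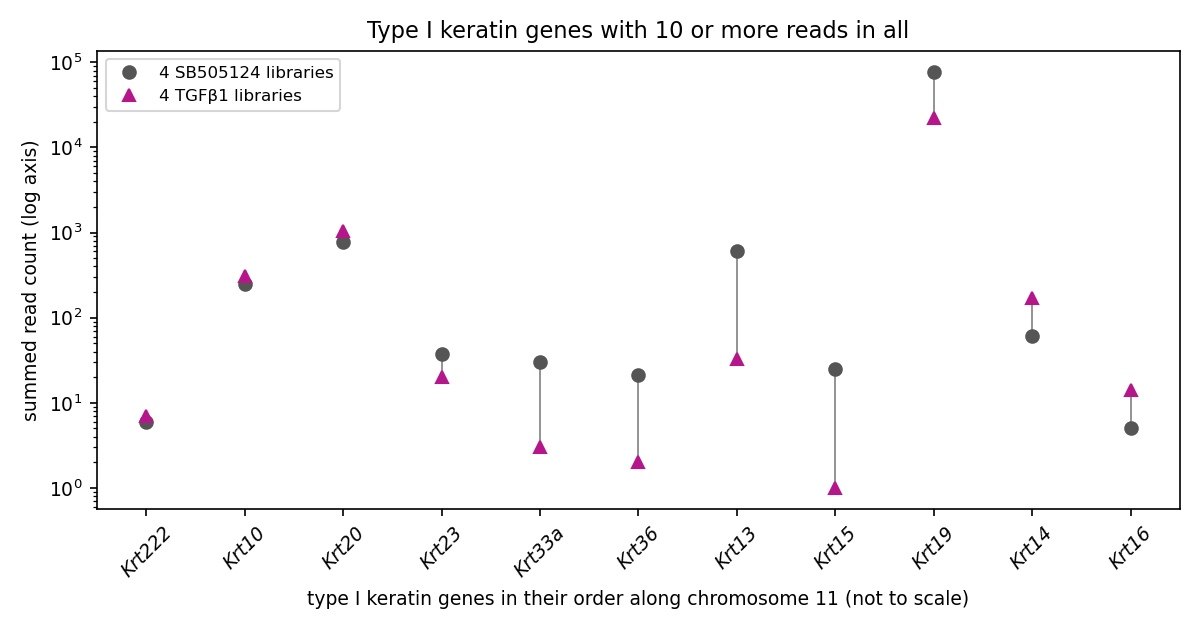
Summed read counts of type I keratin genes with 10 or more reads in all, in their order along chromosome 11 (not to scale), on a log axis. Each point sums 4 libraries, circles under SB505124 and triangles under TGFβ1. For Krt33a, Krt36, Krt13, Krt15 and Krt19 the triangles lie below the circles, with 3 against 30 reads for Krt33a and 22274 against 77942 for Krt19.

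Restoration of Smad4 was then compared with its suppression within each treatment. No keratin was called in either direction. Under TGFβ1, 0 of 11 were called, where 3.12% of all tested genes were called in either direction, and 1 keratin (Krt13) and 3396 of the 14301 genes had an unadjusted p under 0.05. Under SB505124, 0 of 11 were called against 1.09% of all genes, and 3 (Krt13, Krt79 and Krt19) and 1809 of the 14301 genes had an unadjusted p under 0.05. DESeq2 called 0 in both, with or without the line. Over the 11 keratins the median log2 change was 0.05 with TGFβ1 and 0.24 with SB505124, beside -0.01 and 0.00 for all genes.

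Krt13 and Krt19 had more reads with Smad4 on under SB505124 and fewer with Smad4 on under TGFβ1, in both lines. For Krt13 the log2 changes were 0.79 (B73) and 0.97 (B87) under SB505124, and -0.67 and -0.98 under TGFβ1. The fitted values were 0.90 ± 0.202 (edgeR adjusted p 0.106) and -1.07 ± 0.373 (adjusted p 0.181). For Krt19 the log2 changes were 0.89 and 0.22 under SB505124 and -0.54 and -0.08 under TGFβ1, with fitted values of 0.53 ± 0.206 (edgeR adjusted p 0.349) and -0.33 ± 0.207 (adjusted p 0.38). The difference between treatments, tested as an interaction, was -1.97 ± 0.423 for Krt13 (edgeR adjusted p 0.182) and -0.86 ± 0.292 for Krt19 (adjusted p 0.345). No keratin was called for the interaction, against 0.189% of all genes in either direction, while these 2 and 1493 of the 14301 genes had an unadjusted p under 0.05 and DESeq2 also called 0.

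For Krt8 and Krt20 the difference between Smad4-on and Smad4-off cells had opposite signs in the lines, under both treatments. Krt8 had 1141 (Smad4 off) and 1944 CPM (Smad4 on) under SB505124 and 1233 and 2410 CPM under TGFβ1 in B73, so Smad4-on cells were higher in both treatments. In B87 it had 391 and 236 CPM under SB505124 and 280 and 242 CPM under TGFβ1, so Smad4-on cells were lower in both. Krt18, its partner, had 1110 CPM (Smad4 off) and 1545 CPM (Smad4 on) with SB505124 and 1439 and 2428 CPM with TGFβ1 in B73. In B87 the corresponding levels were 882 and 592 CPM, then 730 and 749 CPM, so that the lines differed in sign with SB505124 only. Krt20, a keratin of intestinal and gastric surface epithelium, had 13.9 and 25.0 CPM (SB505124) and 17.6 and 28.6 CPM (TGFβ1) in B73, Smad4 off before Smad4 on. In B87 it had 1.41 and 0.250 CPM, then 2.29 and 0.867 CPM, on 6 to 46 counts per library. Krt7 had 541, 649, 577 and 474 CPM in B73, in the order of groups given above, and 23.5, 12.6, 28.7 and 14.9 CPM in B87, where both Smad4-on libraries were the lower of their pair.

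Whether the Smad4 effect differed between B73 and B87 was tested with an interaction of line and Smad4 over both treatments. In edgeR no keratin was called, against 0.392% of all genes in either direction, while 6 of the 11 had an unadjusted p under 0.05 (Krt8, Krt20, Krt7, Krt14, Krt18 and Krt80), as had 1408 of the 14301 genes. The Smad4 effect was lower in B87 than in B73 by a log2 difference of -1.34 ± 0.213 for Krt8 (edgeR adjusted p 0.0678), -2.54 ± 0.447 for Krt20 (adjusted p 0.0952), -0.89 ± 0.228 for Krt18 (0.227) and -0.92 ± 0.226 for Krt7 (0.206). DESeq2 with the line in its model called Krt8 (adjusted p 7.45e-07) and Krt20 (adjusted p 0.00409). The median difference over the 11 keratins was -0.89, beside -0.01 for all genes. Each line gave 1 culture per condition, so a difference between cultures and one between lines cannot be told apart.

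**Figure D5:**
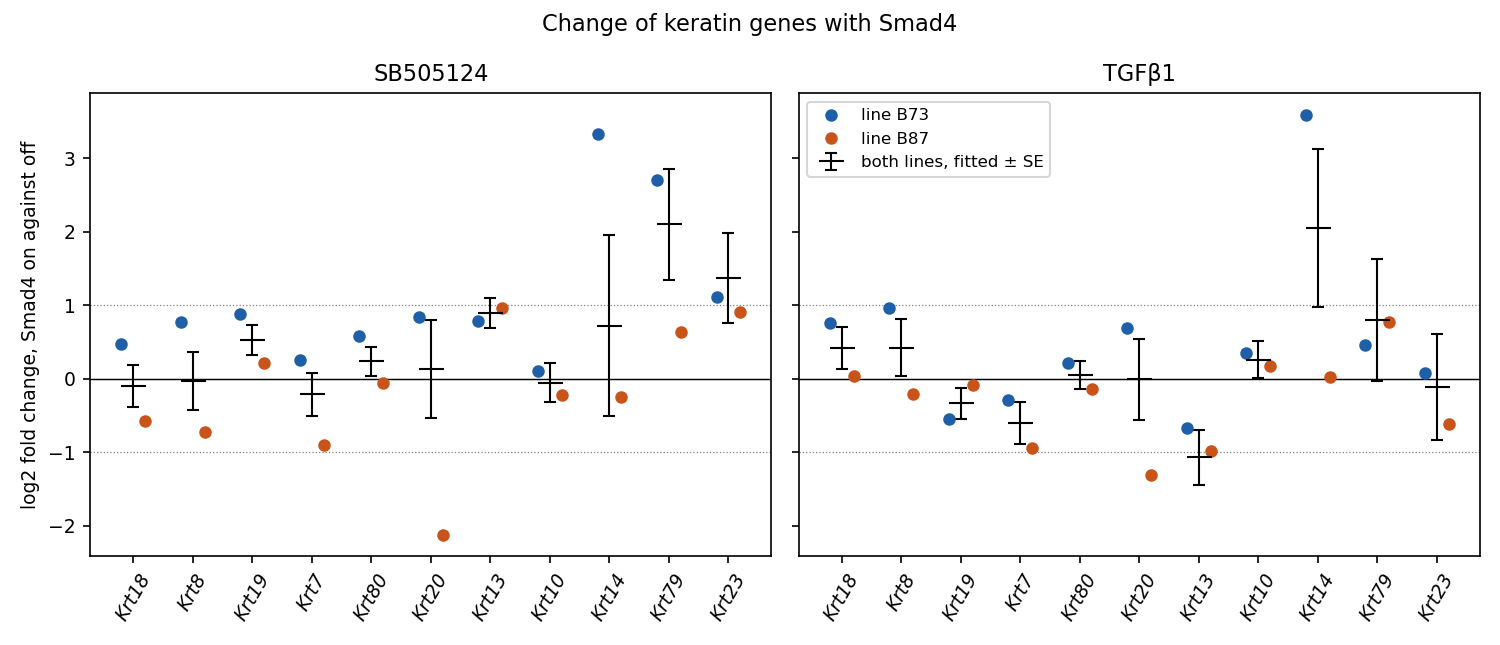
Log2 fold change of each detected keratin with Smad4 on against off, under SB505124 (left) and TGFβ1 (right). Colored points are the 2 lines and the black bar is the value fitted to both ± SE. Dotted lines mark 2-fold. Krt8 and Krt20 lie above 0 in B73 and below 0 in B87 in both panels, and Krt13 and Krt19 lie above 0 under SB505124 and below 0 under TGFβ1.

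The response to TGFβ1, tested likewise with an interaction of line and treatment, was called as different between the lines for no keratin and for 0% of all genes in edgeR, with 1 keratin (Krt79) and 1198 genes at an unadjusted p under 0.05. DESeq2 with the line also called 0 keratins. For Krt19 the difference was -0.42 ± 0.259 and for Krt13 it was 0.29 ± 0.409.

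Finally, the level of each keratin was compared between the lines, with the group in the model. B87 had less mRNA of most simple epithelial keratins than B73. Of the 11 genes 5 were called lower in B87 and 1 higher, where 4.5% of all tested genes were called lower and 3.87% higher. The median log2 difference was -0.99 for the keratins and -0.01 for all genes. Krt7 was between 474 and 649 CPM in B73 and between 12.6 and 28.7 CPM in B87, a log2 difference of -4.86 ± 0.233 (SE, edgeR adjusted p 4.88e-05). Krt20 was between 13.9 and 28.6 CPM in B73 and between 0.250 and 2.29 CPM in B87 (-4.17 ± 0.502, edgeR adjusted p 0.00194). Neither gene overlapped between the lines.

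Krt8 had a log2 difference of -2.51 ± 0.293 in B87 (edgeR adjusted p 0.0017), with at least 1141 CPM in every B73 library and at most 391 CPM in every B87 library. Krt18 differed by -1.10 ± 0.206 (edgeR adjusted p 0.0118). It was no longer called when any Smad4-on library was left out, with log2 differences of -0.99 (edgeR adjusted p 0.0502 without the B73 and 0.0511 without the B87 library under SB505124) and -0.90 (adjusted p 0.0264 and 0.0261 for those under TGFβ1, each under 2-fold). Krt23, a type I keratin, had 9 to 24 counts per B73 library and 0 to 2 per B87 library, a ratio of B73 to B87 of 19.1 (95% counting interval 6.20 to 95.6, from 54 against 3 counts) and an edgeR adjusted p of 0.00356. Krt19 had a log2 difference of -0.99 ± 0.148 (edgeR adjusted p 0.0049), just under the 2-fold rule, and it was called without either of the Smad4-off SB505124 libraries (-1.17 without each).

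Krt13 was the exception, with a log2 difference of 1.10 ± 0.177 (edgeR adjusted p 0.00667). In each of the 4 groups its level in B87 was above that in B73. The call was lost without the Smad4-on SB505124 library of B87 (1.09, edgeR adjusted p 0.0511). Krt80 (-0.19 ± 0.138), Krt10 (0.25 ± 0.183), Krt14 (0.40 ± 0.831) and Krt79 (-0.48 ± 0.561) were not called. Krt20 and Krt23 lie next to each other on chromosome 11 and were both lower in B87, while Krt10, 39.0 kb before Krt20, lay between 2.74 and 3.52 CPM in B73 and between 2.70 and 4.69 CPM in B87.

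Markers of other cell types also differed between the lines. The fibroblast list summed to between 5.84 and 40.5 CPM in B73 and between 51.6 and 668 CPM in B87, with 5 of 8 genes above 1 CPM in some library. Of 5 tested genes, 3 were called higher in B87 and 1 lower, beside 3.87% and 4.5% of all tested genes. Col1a1, whose locus carries the shRNA cassette, was between 25.9 and 627 CPM in B87 and between 0.349 and 5.10 CPM in B73, Pdgfrb between 12.8 and 27.2 against 0 to 1.46 CPM, and Pdgfra between 3.52 and 6.41 against 0.648 to 0.898 CPM. Col1a2 was lower in B87 (at most 0.255 against at least 1.80 CPM), Lum was at 0 and Dcn did not exceed 0.149 CPM. Of the 10 PDAC epithelium markers 6 were called lower in B87 and 0 higher, beside 4.5% and 3.87% of all tested genes. They were the keratins Krt7, Krt8 and Krt18, Cdh1 (-2.06 ± 0.327, edgeR adjusted p 0.00613), Muc1 (-2.62 ± 0.259, adjusted p 0.000887) and Cldn4. Cldn4 had no count in any SB505124 library of either line. Under TGFβ1 it had 2.96 (Smad4 off) and 46.2 CPM (Smad4 on) in B73, against 0.199 and 3.26 CPM in B87. The endothelial list summed to between 0.702 and 7.24 CPM in B73 and between 2.66 and 26.1 CPM in B87, mostly Kdr, which was called higher in B87 (1.998 ± 0.224, edgeR adjusted p 0.00146) and reached 25.2 CPM, with Pecam1 at most at 0.214 CPM and Emcn at 0. The part of these genes in the keratin differences was not tested. Some also moved with TGFβ1. With Smad4 on, Cdh1 fell by 2.31 ± 0.458 (edgeR adjusted p 0.00936) and Col1a1 was higher by 2.43 ± 0.219 (adjusted p 0.000409). Cldn4, of the same epithelial list as Cdh1, went the other way and was called higher in both Smad4 states, with 69 (Smad4 off) and 906 counts (Smad4 on) in B73 and 4 and 64 in B87 under TGFβ1. In both states Cdh5 was called higher (3.79 ± 0.495 with Smad4 on, edgeR adjusted p 0.00177) and Upk1b lower (-2.56 ± 0.176, adjusted p 0.000172). With Smad4 off, Kdr was also called higher (2.02 ± 0.284, edgeR adjusted p 0.00615) and Upk3b lower. The part of these in the fall of Krt19 and Krt13 was not tested either. Markers were also called with Smad4, where 3.12% (TGFβ1) and 1.09% (SB505124) of all tested genes were called in either direction. Col1a1 was called higher with Smad4 on under both treatments, at 119 against 25.9 CPM in B87 under SB505124. Under TGFβ1, Cldn4 was also called higher, and Muc1 and Kdr lower (Kdr 2.60 against 25.2 CPM in B87). Their part in the Smad4 comparisons of the keratins was not tested.

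Genes related to keratins were examined through lists of filament linkers and binding partners, gene regulators and other intermediate filament genes. The linkers of the first list join keratin filaments to desmosomes, hemidesmosomes or other filaments, and its other members are binding partners. With TGFβ1 in Smad4-on cells, 2 of 14 tested genes of this list were called higher and 2 lower. Of all tested genes 5.62% were called higher and 8.31% lower (median log2 change of the 14 genes -0.08). Pkp1 (1.56 ± 0.205, edgeR adjusted p 0.00183) and Pkp2 (1.12 ± 0.117, adjusted p 0.000726), desmosomal plakophilins, rose. Ppl (-3.18 ± 0.350, edgeR adjusted p 0.00089) and Evpl (-1.80 ± 0.426, adjusted p 0.0178), the plakins periplakin and envoplakin of the cornified envelope, fell. In Smad4-off cells Pkp1 rose (2.37 ± 0.229, edgeR adjusted p 0.00176) and Ppl fell (-1.43 ± 0.321, adjusted p 0.0308). Of 5 tested keratinocyte markers, 1 (Lor) was called higher and 2 (Trp63 and Ivl) lower with TGFβ1 in Smad4-on cells. Lor had 4 (B73) and 10 counts (B87) under SB505124 and 28 and 21 under TGFβ1. Ivl had 8 and 38 against 2 and 4. In Smad4-off cells only Lor of this list was called, again higher.

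Pkp1 and Ppl were also called with Smad4. Pkp1 was higher with Smad4 on under TGFβ1 (1.45 ± 0.204, edgeR adjusted p 0.0107) and under SB505124 (2.26 ± 0.229, adjusted p 0.00737). Its level was 4.09 CPM (B73) and 6.85 CPM (B87) in Smad4-off cells under SB505124 and 84.0 and 69.2 CPM in Smad4-on cells under TGFβ1. Ppl was lower with Smad4 on under TGFβ1 (-2.20 ± 0.341, edgeR adjusted p 0.0147), at 31.5 against 122 CPM in B73 and 13.2 against 78.4 CPM in B87. Plec, which encodes the linker plectin, was not called with TGFβ1, at 0.71 ± 0.101 in Smad4-on cells (edgeR adjusted p 0.00252, under 2-fold). Between the lines, the linker Evpl (-1.95 ± 0.318, edgeR adjusted p 0.00687) and Fam83g (-3.71 ± 0.276, adjusted p 0.000281), listed as a binding partner, were lower in B87.

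Of 18 tested regulators linked to keratin or epithelial gene expression, most of them transcription factors, 5 were called lower and 2 higher with TGFβ1 in Smad4-on cells. Of all tested genes 8.31% were called lower and 5.62% higher (median log2 change of the 18 regulators -0.07). Klf4 (-1.60 ± 0.450, edgeR adjusted p 0.0336) and the ETS factor Elf3 (-2.70 ± 0.495, adjusted p 0.00686) fell. The Klf4 fall was mostly that of line B73. Its Smad4-on cells held 278 CPM of Klf4 under SB505124, the highest of the 8 libraries, and 45.4 CPM under TGFβ1. Smad4-on B87 cells changed less, with 165 CPM under the inhibitor and 120 CPM under TGFβ1. Trp63, Grhl3 and Ehf were also called lower but at few reads, with at most 13, 19 and 24 counts in an SB505124 library and at most 1 in any Smad4-on TGFβ1 library. Junb (3.20 ± 0.154, edgeR adjusted p 5.78e-05) and Snai1 (2.28 ± 0.564, adjusted p 0.0211) rose. In Smad4-off cells Junb rose (2.82 ± 0.152, edgeR adjusted p 0.000338) and Grhl3 was called lower, and no regulator was called with Smad4 in either treatment. Between the lines Elf3 (-1.94 ± 0.347, edgeR adjusted p 0.0101) and Ehf (adjusted p 0.00337) were lower in B87, Sox2 had 18 to 61 counts per B73 library and 0 in every B87 library, and Snai1 was higher in B87 (2.40 ± 0.426, adjusted p 0.00969).

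Vim, which encodes the mesenchymal filament protein vimentin, was expressed in all 8 libraries, with 3374, 4006, 3896 and 5319 CPM in B73 and 3124, 3925, 3198 and 4870 CPM in B87. With TGFβ1 it was higher by 0.36 ± 0.098 on the log2 scale in Smad4-on cells (edgeR adjusted p 0.0298), which is under 2-fold and was not called, and it was not called between the lines (-0.14 ± 0.069, adjusted p 0.226). Of the 13 tested intermediate filament genes other than keratins, 1 was called higher (Sync) and 1 lower (Prph) with TGFβ1 in Smad4-on cells. Of all tested genes 5.62% were called higher and 8.31% lower. Both genes were named after their values were seen, and both had few reads. Sync went from 4 to 22 counts in B73 and from 4 to 58 in B87. Prph went from 85 to 26 counts in B73 and from 18 to 6 in B87. None was called in Smad4-off cells, against 3.11% higher and 2.82% lower of all genes. Between the lines, 1 of the 13 was called higher in B87 (Nes) and 3 lower (Prph, Ina and Iffo1), beside 3.87% and 4.5% of all tested genes. Nes lay between 441 and 604 CPM in B73 and between 950 and 1337 CPM in B87. Ina held at most 29 counts in a library.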

How the data were processed

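RNA was poly(A)-selected, prepared as stranded libraries and sequenced as 75-bp single-end reads by the authors. Per the labels and the study's methods, reads were trimmed with Trimmomatic 0.36, aligned with STAR 2.5.3a to GRCm38 (mm10) and counted per gene with featureCounts 1.6.3. The deposited table holds raw counts, not normalized, for 53465 genes, and its strand and multi-mapping settings are not given in the sources used here.

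Counts were tested with edgeR 4.0.16 in R 4.3.3 (TMM, filterByExpr, quasi-likelihood F-test, 14301 genes), with the 4 groups and the line as terms over all 8 libraries. The study used DESeq2 with no stated covariate. The line was kept as a block because each line passed through all 4 conditions and is named in every title (deviations of the lines correlated at 0.642 to 0.774 over 6 pairs of groups). Calls used a Benjamini-Hochberg adjusted p under 0.05 over all tested genes and a change over 2-fold, as in the study. Each standard error was obtained from the log2 change and the root of its F statistic. Changes per line use log2 CPM with a prior count of 2. Depths of 18389235 to 23440550 counts set a floor of 3 counts at 0.125 to 0.162 CPM. PCR copies cannot be told apart, so floors and intervals cover counting error only.

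Transcript lengths and shared 75-base stretches came from GENCODE M21, and promoters from RefSeq on GRCm38.p6, where 9 of the 11 detected genes matched. Krt19 and Krt80 were not matched. For Krt7 the principal transcript is 4094 bases long. A simulation of 200 changed genes among 14301 for TGFβ1 in Smad4-on cells recovered 92.5% at a log2 change of 2, with 0.538% of calls false, and 56% with no replicate block. It was a single draw with the spread taken from the dispersion trend and the same change in both lines. Levels of each line were built in, so the gain from the block was fixed beforehand. These rates do not give the error rates in the real libraries.

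The members, gene lists and motifs were chosen with earlier results of these data known. Named genes were all detected keratins, Vim and the called genes of the linker and transcription factor lists. Plec, a linker that was not called, was named outside that rule, as were Sync, Prph, Nes, Ina, Iffo1, some undetected keratins and some cell type markers. The alternatives tried were another scaling (DESeq2 size factors), DESeq2 1.42.0 instead of edgeR in models that held or dropped the line, edgeR with no replicate block, other count filters (none, or a minimum of 10 in all libraries), calls by adjusted p alone, and omission of single libraries or of a whole line. One further allele of the mice is not reported here.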

Additional observations from a re-analysis of the deposited data

Results flagged for a closer look

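For Krt13 and Krt19, the Smad4 effect had opposite signs under the 2 treatments in both lines, higher with Smad4 on under SB505124 and lower under TGFβ1. The tested difference was -1.97 ± 0.423 for Krt13 (edgeR adjusted p 0.182) and -0.86 ± 0.292 for Krt19 (adjusted p 0.345), so neither passed.

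For Krt8, Krt20 and Krt80, the Smad4 effect had opposite signs in the lines under both treatments, higher in B73 and lower in B87. The tested difference was -1.34 ± 0.213 for Krt8 (edgeR adjusted p 0.0678), -2.54 ± 0.447 for Krt20 (adjusted p 0.0952) and -0.50 ± 0.203 for Krt80 (adjusted p 0.487).

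For Krt79, the TGFβ1 effect had opposite signs in the lines in both Smad4 states, lower in B73 and higher in B87, with a tested difference of 2.18 ± 0.833 (edgeR adjusted p 0.586). It rests on 8 to 58 counts per library, and 1 B73 library holds the 58. These results were noticed in the same libraries in which the differences were tested.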

How the results depend on the processing

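Of 98 recomputed counts of called keratins, 85 stayed within 1.5 times of the value reported, and no called value changed sign. The 85 include counts of 0 that stayed at 0, and the band also takes in moves from 2 to 3 and from 6 to 4. With TGFβ1 in Smad4-on cells the count of 2 became 1 in edgeR with no replicate block (Krt13 stayed) and 1 with at least 10 counts in every library, a filter that left 6 keratins and removed Krt13. In Smad4-off cells the count of 2 became 1 in DESeq2 with no replicate block, 0 in edgeR with no replicate block and 1 with at least 10 counts in every library. Pairing by line rests on the sample titles, and with no replicate block the counts for Smad4 and for the interaction stayed at 0. With no count filter, TGFβ1 in Smad4-on cells gave 3 (Krt14 added), and the counts of 0 became 1 for Smad4 under TGFβ1 (Krt14), 1 for Smad4 under SB505124 (Krt79), 1 for the interaction (Krt13) and 3 for line by Smad4 (Krt8, Krt14 and Krt20). Line by Smad4 became 2 in DESeq2 with the line. The count of 6 between the lines became 3 with at least 10 counts in every library. Causes were not tested apart from the genes removed by that filter.

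Leaving out single libraries gave 0 to 1 keratins for Smad4 under SB505124 (1 without the Smad4-on library of B87, Krt79 at 3.24, edgeR adjusted p 0.0462), 2 to 3 for TGFβ1 with Smad4 on, 1 to 2 with Smad4 off and 4 to 7 between the lines. The uncalled change of Krt79 with TGFβ1 in Smad4-on cells changed sign without its Smad4-on SB505124 library of B73 (0.32) and without B73 altogether (0.41), against -2.42 without B87. Detection in all 8 libraries left 6 of the 11 keratins. Keratins listed here as undetected missed the rule of 10 counts in at least 2 libraries. Some of them had reads above the floor of 3 counts, up to 12 counts for Krt87 and Krt33a (0.514 and 0.499 CPM). Keratins with no read may be present below that floor, at 0.125 to 0.162 CPM.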
